A study of Rattus norvegicus with 13 samples.

Results

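Insulin receptor signalling and the glucose transporter Glut4 were followed through 10 genes named by symbol, in fat from 13 daughters of Sprague Dawley rats (a laboratory strain kept outbred). The genes were Insr, Irs1, Irs2, Grb2, Grb10, Pdpk1, Akt1, Akt2, Gsk3a and Slc2a4, and 9 of them had a probe set annotated to that symbol alone, among 14506 genes measured in this way. Irs2 is not analysed here. Where a symbol had several probe sets, the brightest one by its mean across arrays was taken, and the others are given beside it.

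The 6 high-fat daughters (HFD in the figures) had fathers fed pellets with 43% fat, and the 7 control daughters (Control) had fathers fed laboratory chow with 9% fat. The fathers, 15 weeks old, were mated with chow-fed females, all daughters were weaned onto chow at 3 weeks, and fat was taken from them at 14 weeks. No daughter ate the high-fat pellets herself, only female offspring were studied, and the fat depot and the identity of fathers and litters are not stated in the labels. The submitters describe the high-fat daughters as glucose intolerant, with body weight, adiposity and an insulin tolerance test that did not differ. The comparison asks how transcripts in fat relate to the father's diet.

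Insulin binds the insulin receptor (Insr) on the adipocyte, and the activated receptor phosphorylates the docking proteins Irs1 and Irs2. The lipid made by the PI3-kinase that they recruit brings Pdpk1 and the Akt kinases to the membrane, where Pdpk1 phosphorylates Akt. In fat cells Akt2 is the isoform chiefly tied to moving Slc2a4 (Glut4) from internal vesicles to the cell surface, which lets glucose in, while phosphorylation by Akt turns Gsk3a off and so releases glycogen synthase. Grb2 links the receptor and Irs1 to the Ras pathway, and Grb10 is an adaptor that binds the activated receptor and dampens its signal. Much of this control acts on proteins and their location, which an array of transcripts does not measure.

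Each daughter gave 1 array. Values are log2 levels made by the authors with RMA, so a difference of 1 is a 2-fold change. Levels of different probe sets are set side by side only to rank their brightness and to choose genes of like level. Precision is limited by how many arrays there are. The animals are called by the numbers in their titles. Nothing says that they came from separate litters, so p-values reflect only how much these samples vary. Adipocyte markers were bright in every array, with a mean over 10 genes of 12.13 to 12.37 in high-fat and 12.10 to 12.28 in control daughters. That mean averaged 12.30 ± 0.09 (SD, n = 6) in high-fat and 12.19 ± 0.07 (SD, n = 7) in control daughters (two-sided exact permutation test, p = 0.0355, adjusted p = 0.184 over 10 array measures). Of the 10 markers, 9 were higher, beside 87.2% of all genes with a mean level of at least 9.03.

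Libraries differed in 2 ways that touch the results below. First, 11 skeletal muscle markers averaged 12.17 in high-fat daughter 629, 9.59 in high-fat daughter 619, 12.24 in control 662 and 12.08 in control 664, against 7.45 to 7.59 in the other 9 arrays. Second, the standard deviation over all probe sets of an array ran from 1.86 to 1.96 in high-fat and from 1.78 to 1.94 in control daughters, with the smallest in controls 658 and 631 and in high-fat daughter 660. Its mean was 1.93 ± 0.04 (SD, n = 6) in high-fat and 1.89 ± 0.05 (SD, n = 7) in control daughters (two-sided exact permutation test, p = 0.124, adjusted p = 0.365 over 10 array measures).

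No gene of the group passed the test for the father's diet, and all 9 had a higher mean in high-fat daughters. The test was limma over all 14506 genes with Benjamini-Hochberg adjustment at 0.05, two-sided, and it called 0 genes (0% of all), with a smallest adjusted p of 0.529. At an unadjusted p under 0.05, limma had 3 of the 9 genes, Insr, Pdpk1 and Akt2, all higher (33.3%). Of all genes, 5.42% had such a p and were higher, 2.54% had one and were lower, and 7.96% had one in either direction. An unmoderated linear model also called 0 genes after adjustment. The median difference of the 9 genes was 0.14 log2 units, against 0.03 over all genes, of which 58.0% were higher. Brighter genes were more often higher: of the 4592 genes with a mean level at least that of Slc2a4, the lowest of the 9, 87.2% were higher in high-fat daughters, with a median difference of 0.09, and 9.23% were higher at an unadjusted p under 0.05. For 0 of the 9 genes did the groups part without overlap, where 0.0551% of all genes lay higher and 0.0276% lower in every high-fat daughter than in any control.

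**Figure D1:**
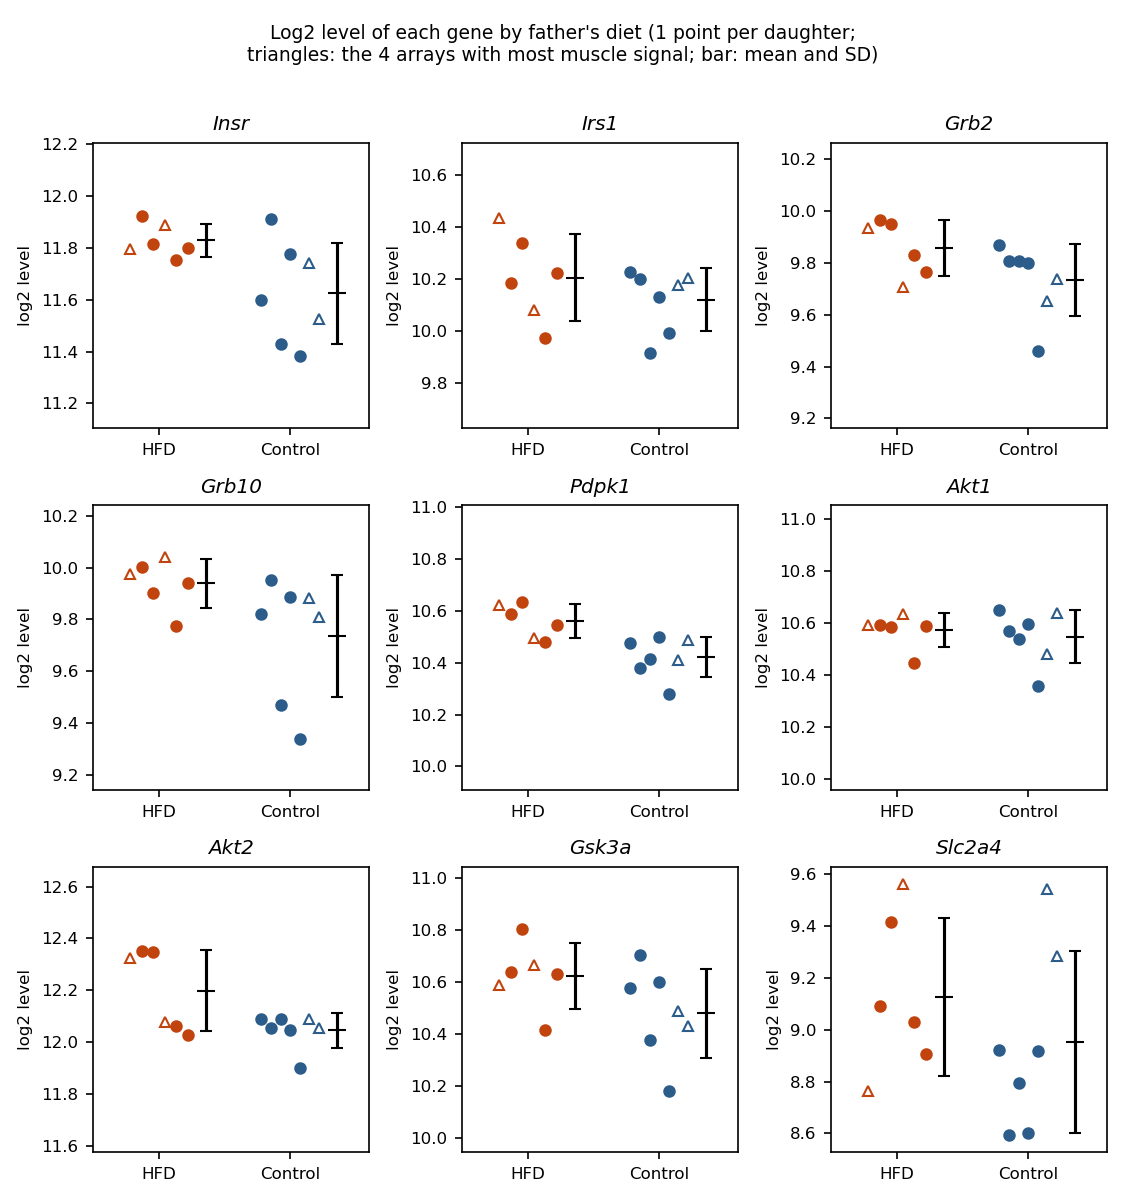
Log2 level (vertical axis, the same span of 1.1 in each panel) of 9 insulin signalling genes in 6 high-fat (HFD) and 7 control daughters, 1 point per animal, with the mean and SD as a black bar. The groups overlap in every panel, Pdpk1 least, and Slc2a4 spreads the most, with open triangles marking the 4 arrays with most muscle signal.

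The receptor gene Insr (probe set 10756251) lay between 11.75 and 11.92 in high-fat daughters, with a median of 11.81, against 11.38 to 11.91 in controls, with a median of 11.60. All 6 high-fat daughters were above the control median, and 5 of 7 controls were below every high-fat daughter, so most of the controls lay lower, with 1 high-fat daughter above them all. The means were 11.83 ± 0.06 (SD, n = 6) in high-fat and 11.62 ± 0.19 (SD, n = 7) in control daughters. The difference was 0.20 ± 0.08 log2 units (SE), a 1.15-fold level with a 95% interval of 1.02 to 1.30. An exact permutation test of this gene alone gave p = 0.0361, and limma gave an adjusted p of 0.529. A second Insr probe set (10756229) read 9.89 to 10.29 in high-fat and 9.67 to 10.16 in control daughters. It differed by 0.17 ± 0.09 (adjusted p = 0.568 over all probe sets, limma) and varied with the first, at r = 0.863 over 13 arrays.

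The docking protein gene Irs1 (probe set 10929390) ran from 9.97 to 10.43 in high-fat daughters, median 10.20, and from 9.91 to 10.23 in controls, median 10.18. The groups overlapped over most of their range, and the difference was 0.09 ± 0.08 (limma, adjusted p = 0.611). A 95% interval of 0.94-fold to 1.19-fold bounds what these arrays could show for Irs1.

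Of the adaptors, Grb10 (probe set 10778505), an inhibitor of the receptor and an imprinted gene in mouse, read 9.78 to 10.04 in high-fat daughters, median 9.96, against 9.34 to 9.95 in controls, median 9.82. Controls 631 and 658, at 9.47 and 9.34, stood well below the rest of their group. The difference was 0.20 ± 0.10 (limma, adjusted p = 0.529), a 1.15-fold level with a 95% interval of 0.996 to 1.33. Grb2 (probe set 10749005) lay between 9.71 and 9.96 in high-fat daughters, median 9.88, and between 9.46 and 9.87 in controls, median 9.80. Its difference was 0.13 ± 0.07 (limma, adjusted p = 0.529), and 3 of 6 high-fat daughters lay above all controls. The other Grb2 probe set (10721229) was dim, at 5.69 to 6.06 in high-fat and 5.62 to 6.18 in control daughters. Its difference was -0.03 ± 0.09, and it did not follow the first, with r = -0.342 over 13 arrays, so the Grb2 value rests on 1 probe set.

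Among the kinases, Pdpk1 (probe set 10740966), which phosphorylates Akt, had the smallest SD within groups and the smallest p of the 9 genes. It read 10.48 to 10.64 in high-fat daughters, median 10.57, against 10.28 to 10.50 in controls, median 10.42. All 6 high-fat daughters were above the control median, and 4 were above every control. The mean was 10.56 ± 0.06 (SD, n = 6) in high-fat and 10.42 ± 0.08 (SD, n = 7) in control daughters, and the difference of 0.14 ± 0.05 was a 1.10-fold level (95% interval 1.02 to 1.19). An exact permutation test of this gene alone gave p = 0.00583, and limma gave an adjusted p of 0.529. The pooled SD within groups was 0.07, at percentile 4.38 of all genes.

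Of the Akt isoforms, Akt2 (probe set 10705394) ran from 12.03 to 12.35 in high-fat daughters, median 12.20, and from 11.90 to 12.09 in controls, median 12.06. High-fat daughters 619, 620 and 624 read 12.32, 12.35 and 12.35, above every control, while 629, 660 and 663 read 12.08, 12.06 and 12.03, within the control range. The difference was 0.15 ± 0.07 (1.11-fold, 95% interval 1.005 to 1.229), with an exact permutation p of 0.0600 and an adjusted p of 0.529 in limma. Akt1 (probe set 10892316) read 10.44 to 10.64 in high-fat daughters, median 10.59, and 10.36 to 10.65 in controls, median 10.57, a difference of 0.03 ± 0.06 (0.94-fold to 1.11-fold, adjusted p = 0.828). Whether the difference by diet was larger for Akt2 than for Akt1 was not tested. Gsk3a (probe set 10719798), a target of Akt, lay between 10.41 and 10.80 in high-fat daughters, median 10.63, and between 10.18 and 10.70 in controls, median 10.49, a difference of 0.14 ± 0.08 (limma, adjusted p = 0.529).

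Slc2a4 (probe set 10744324), the transporter at the end of the pathway, varied more than the other 8 genes. It read 8.76 to 9.56 in high-fat daughters, median 9.06, against 8.59 to 9.54 in controls, median 8.92. The highest arrays were high-fat daughter 629 (9.56), control 662 (9.54), high-fat daughter 624 (9.41) and control 664 (9.29), so the top of the range held both groups. The pooled SD within groups was 0.33, at percentile 92.6 of all genes, and the difference was 0.18 ± 0.17 (1.13-fold, 95% interval 0.88 to 1.45, limma, adjusted p = 0.615).

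Slc2a4 is also a gene of skeletal muscle and of brown fat, and 3 of the 4 highest arrays were among those with most muscle signal. High-fat daughter 619, with muscle markers at 9.59, had the lowest Slc2a4 of its group (8.76), and high-fat daughter 624 was high with muscle markers at 7.45, the lowest of all arrays. Since the arrays fall apart by muscle signal, no pooled correlation of Slc2a4 with the muscle markers is given. In the 9 other arrays, Slc2a4 was 9.09, 9.41, 9.03 and 8.91 in high-fat daughters 620, 624, 660 and 663, against 8.92, 8.59, 8.80, 8.60 and 8.92 in controls 622, 627, 631, 656 and 658. There 3 of 4 high-fat daughters lay above all 5 controls, and the mean was 9.11 ± 0.22 (SD, n = 4) in high-fat and 8.77 ± 0.16 (SD, n = 5) in control daughters. The difference without the 4 arrays was 0.34 ± 0.12, larger than over all arrays, and it too did not pass (limma, adjusted p = 0.791).

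Across the whole marker list, 1 of 11 muscle genes was higher on average in high-fat daughters and 10 were lower, 0 with an unadjusted p under 0.05. The mean of 6 brown fat markers spanned 6.46 to 8.72 in high-fat and 6.48 to 8.32 in control daughters. It was highest in high-fat daughter 629 and control 662, the arrays with most Slc2a4 and also with most muscle signal. Next came high-fat daughter 663 (8.13) and control 658 (7.74), both with little muscle signal, where Slc2a4 was 8.91 and 8.92. In a piece of fat, more muscle or brown cells and more RNA per cell cannot be told apart. With the brown fat mean as a covariate the Slc2a4 difference was 0.15 ± 0.14, and with the muscle mean 0.20 ± 0.12. With the adipocyte marker mean as a covariate it was 0.47 ± 0.17 (limma, adjusted p = 0.9998), and the part of these cells in the result was not tested beyond these values.

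**Figure D2:**
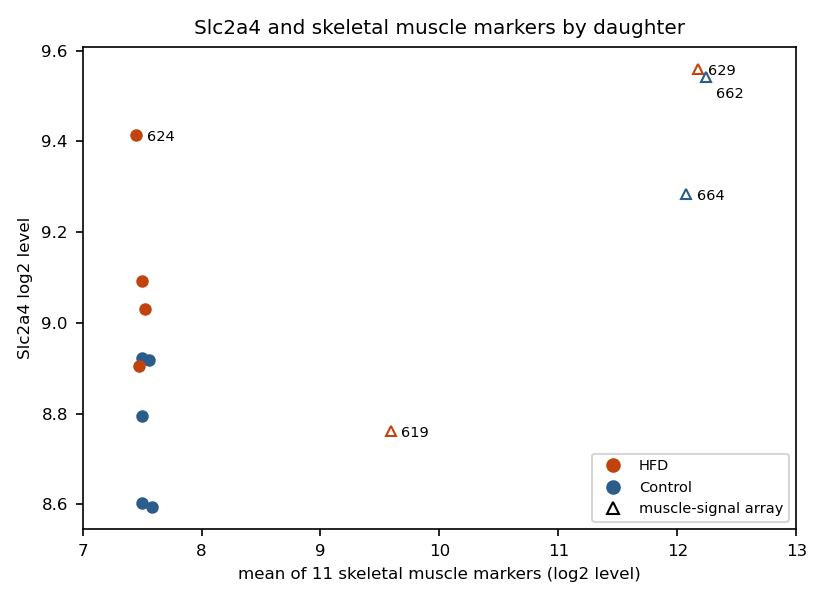
Slc2a4 log2 level (vertical axis) against the mean log2 level of 11 skeletal muscle markers (horizontal axis) for 6 high-fat (HFD) and 7 control daughters. At muscle means of 7.45 to 7.59 on the left, 3 of 4 high-fat points lie above all 5 control points, while the arrays 629, 662 and 664 at the right reach 9.29 to 9.56 in both groups.

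The genes did not vary independently of each other. Of 36 pairs among the 9 genes, 15 had an adjusted p under 0.05 by Pearson's r (100000 permutations, Benjamini-Hochberg over the 36) and 3 by Spearman's rho. All 15 were among the 28 pairs without Slc2a4, where r ran from 0.399 to 0.904 with a median of 0.638. The 8 pairs with Slc2a4 had r from -0.144 to 0.222 over all arrays, and from -0.04 to 0.656 in the 9 arrays with little muscle signal. How many pairs of other genes of like level would pass was not computed, and many such genes went with the array spread, as given below.

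The closest pair was the receptor and its inhibitor. Insr and Grb10 had r = 0.904 (permutation p = 2.0e-05, adjusted p = 0.00072) and rho = 0.907 (permutation p = 0.00011, adjusted p = 0.00216) over 13 arrays. Without the 2 arrays farthest in Insr, controls 631 and 658, r was 0.785 (permutation p = 0.0034). Within animals 619 to 631, r was 0.93 (exact permutation p = 0.00536, n = 7), and within animals 656 to 664 it was 0.866 (exact permutation p = 0.0375, n = 6). Among 14505 other genes, Grb10 ranked 5 and Gsk3a 96 by r with Insr, and Insr ranked 85 by r with Grb10. Insr with Gsk3a (r = 0.831, rho = 0.907) and Grb10 with Gsk3a (r = 0.848, rho = 0.846) had adjusted p of 0.00281 and 0.00281 by r and 0.00216 and 0.00564 by rho (permutation). Without the 2 farthest arrays r was 0.633 for the first pair and 0.635 for the second (permutation p = 0.0368 and 0.0353). A second set was formed by Grb2, Pdpk1 and Akt2, with r = 0.831 for Grb2 and Akt2, 0.826 for Pdpk1 and Akt2 and 0.815 for Grb2 and Pdpk1. None of these 3 pairs passed by rho (adjusted p = 0.0708, 0.278 and 0.244, permutation), and high-fat daughters 619, 620 and 624 were the highest 3 arrays for each of these genes. The same daughters had the largest standard deviation over all probe sets, at 1.961, 1.957 and 1.960.

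The bases before the start of Insr, Grb10 and Gsk3a are shown since these genes varied together in the deposited levels. With the array spread removed, as given below, only Insr with Grb10 still passed. They are the 250 bases before each gene's start from RefSeq, rat build GRCr8, 5′ to 3′ on the gene's strand, and 7 of the 10 genes had an entry. Capitals mark matches, on either strand, to the GC box GGGCGG bound by Sp1 and to GTAAACA, a core that forkhead factors such as Foxo1 bind; overlapping matches are joined.
Insr, chr12:6128804-6129053, minus strand: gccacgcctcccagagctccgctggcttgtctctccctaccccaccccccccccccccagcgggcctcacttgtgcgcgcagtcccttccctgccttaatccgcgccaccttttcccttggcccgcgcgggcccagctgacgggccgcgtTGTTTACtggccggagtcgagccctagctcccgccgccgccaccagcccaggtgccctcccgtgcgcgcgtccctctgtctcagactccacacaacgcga
Grb10, chr14:90816388-90816637, minus strand: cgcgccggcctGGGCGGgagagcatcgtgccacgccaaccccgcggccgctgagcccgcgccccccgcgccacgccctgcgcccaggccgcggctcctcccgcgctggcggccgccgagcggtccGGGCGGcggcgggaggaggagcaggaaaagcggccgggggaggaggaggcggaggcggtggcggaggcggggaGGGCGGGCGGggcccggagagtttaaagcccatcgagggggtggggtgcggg
Gsk3a, chr1:89953515-89953764, minus strand: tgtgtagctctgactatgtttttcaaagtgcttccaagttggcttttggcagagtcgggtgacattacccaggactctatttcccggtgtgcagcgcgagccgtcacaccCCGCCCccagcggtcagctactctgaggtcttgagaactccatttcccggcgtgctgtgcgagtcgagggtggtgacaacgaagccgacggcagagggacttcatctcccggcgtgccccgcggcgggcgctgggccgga

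The 3 windows were rich in G and C, at 71.2% for Insr, 81.2% for Grb10 and 61.2% for Gsk3a, against a median of 52.0% over 27457 promoters. The GC box was found 4 times in Grb10, 1 time in Gsk3a and 0 times in Insr, and is held by 32.4% of all promoters of this length. The forkhead core was found 1 time in Insr and in neither of the others, and 3.25% of all promoters hold it. The windows of Irs1 and Pdpk1 held 2 and 5 GC boxes, and those of Akt1 and Akt2 held 0. The E-box CACGTG was found in none of the 7 windows (5.79% of all promoters hold it), and TATAAA only in that of Akt2 (13.1% hold it), both strands searched. A match only describes the letters.

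Much of the shared variation went with the spread of the arrays. All 9 genes were set against the standard deviation of each array, as 1 family of 9 relations. Pearson's r was 0.701 to 0.876 for the 8 genes other than Slc2a4, each with an adjusted p under 0.05 (the largest 0.00768, permutation), and 0.224 for Slc2a4 (adjusted p = 0.472, permutation). By Spearman's rho 7 passed, and the rho of Grb2 was 0.56 (adjusted p = 0.0554, permutation). Without controls 631 and 658, r was 0.582 for Grb10 (permutation p = 0.0586), 0.628 for Gsk3a (permutation p = 0.0382) and 0.23 for Insr (permutation p = 0.492), so that the relation of Insr rested on those arrays. Within animals 619 to 631 and within 656 to 664 r was 0.788 and 0.963 for Grb10 (exact permutation p = 0.0599 and 0.00972). For Insr it was 0.606 and 0.753 (exact permutation p = 0.129 and 0.0444). Control 631 lies in the first range and control 658 in the second, so these values are not free of those arrays. The relation is not particular to these genes: of 4592 genes with a mean level at least that of Slc2a4, 45.3% had r of at least 0.701 with the array spread, and of all genes 25.2% did.

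**Figure D3:**
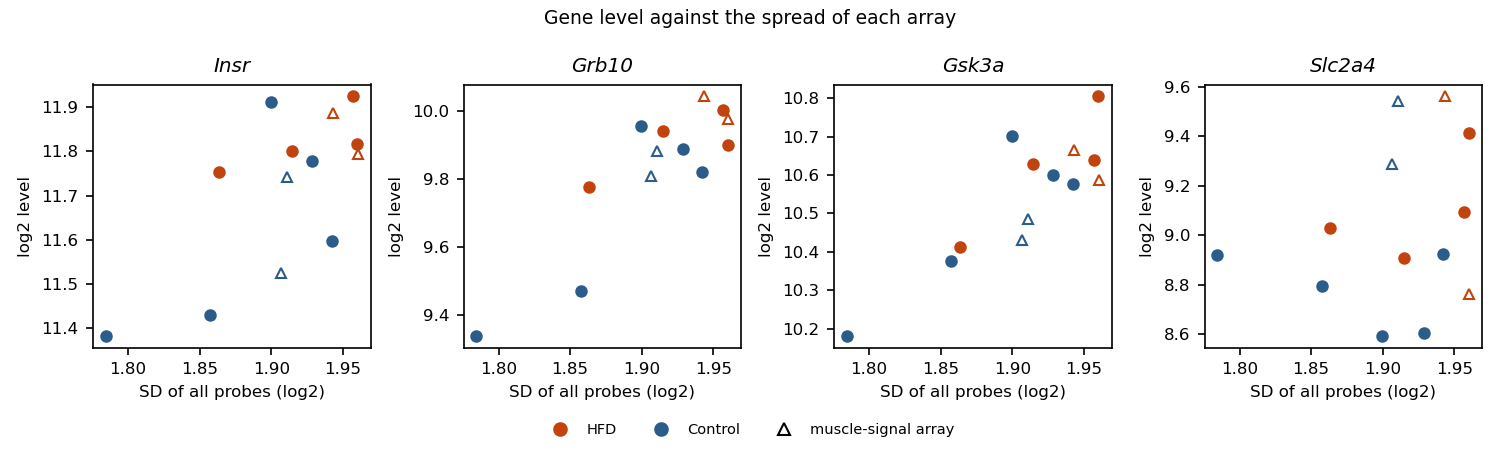
Log2 level of Insr, Grb10, Gsk3a and Slc2a4 (vertical axes) against the standard deviation of all probe sets of the array (horizontal axis, log2 units) in 6 high-fat (HFD) and 7 control daughters. The first 3 genes are lowest in the control arrays of smallest spread (r = 0.701, 0.876 and 0.859), and Slc2a4 shows no such slope (r = 0.224).

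With the array spread removed from each gene, only Insr with Grb10 of the 36 pairs still passed (r = 0.842, permutation p = 0.00041, adjusted p = 0.0148), and the median r of the 28 pairs without Slc2a4 was -0.03. Grb10 then ranked 18 among 14505 genes by r with Insr. Insr with Gsk3a was 0.625 (adjusted p = 0.306, permutation), Grb10 with Gsk3a was 0.386 (adjusted p = 0.733, permutation), and Akt1 with Akt2 was -0.505 (adjusted p = 0.465, permutation). Grb2 with Akt2 was 0.620, Pdpk1 with Akt2 0.565 and Grb2 with Pdpk1 0.519 (adjusted p = 0.306, 0.408 and 0.465, permutation). A permutation of such residuals is approximate.

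**Figure D4:**
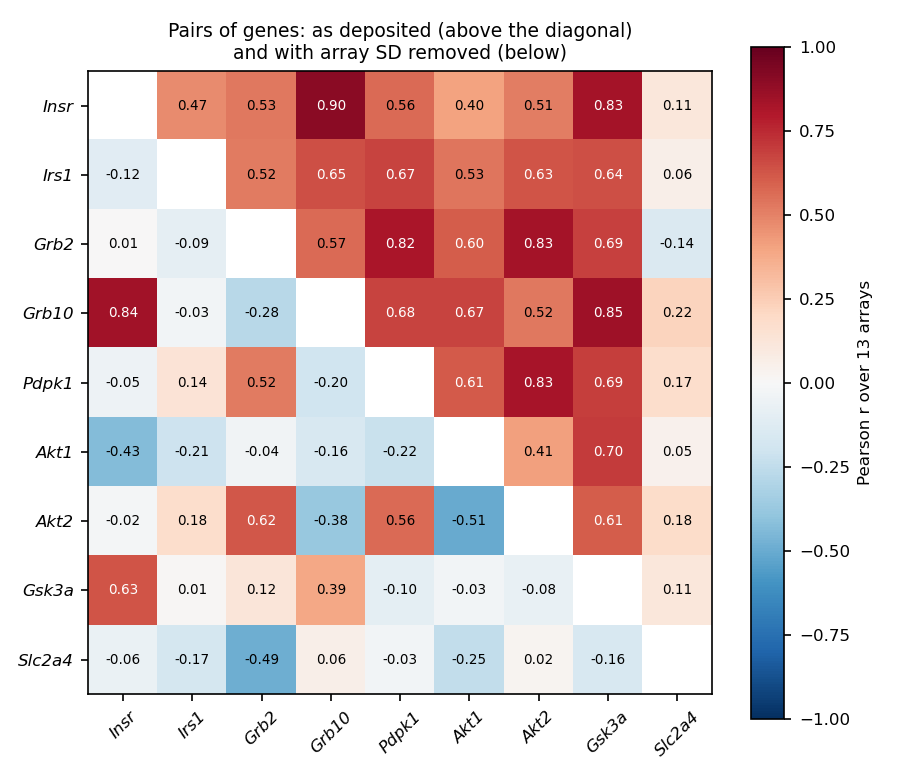
Pearson's r over 13 arrays for the 36 pairs of 9 genes, from the deposited levels above the diagonal and with the standard deviation of each array removed below it; red is positive and blue negative. The block of positive values above the diagonal has a median of 0.638 without Slc2a4, and below it Insr with Grb10 keeps r = 0.842.

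The differences by diet were smaller with the array spread as a covariate. That of Insr was 0.12 ± 0.07, Grb10 0.06 ± 0.06, Gsk3a 0.03 ± 0.06 and Pdpk1 0.09 ± 0.04, and Akt2 was 0.08 ± 0.06. Those of Irs1 and Akt1 were -0.01 ± 0.07 and -0.04 ± 0.04. Of the 9 genes, Pdpk1 alone had an unadjusted p under 0.05 in that fit (adjusted p = 0.9997, limma), against a background of 1.61% of all genes at such a p and higher. With the adipocyte marker mean as a covariate the differences were 0.18 ± 0.10 for Insr, 0.08 ± 0.06 for Pdpk1 and 0.06 ± 0.08 for Akt2. The part of array spread and of adipocyte content in the differences was not tested beyond these fits. Of the 9 genes, 3 had an unadjusted p under 0.05 over all arrays, 1 without high-fat daughter 620 and 5 without high-fat daughter 660. Of all genes, 1155, 593 and 2508 had such a p in the same fits, in that order. Without control 658 alone the differences of Insr, Grb10, Gsk3a and Grb2 were 0.16, 0.14, 0.09 and 0.08, and that of Akt1 was -0.01. Without high-fat daughter 629 the Slc2a4 difference was 0.09, and without control 662 it was 0.27.

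**Figure D5:**
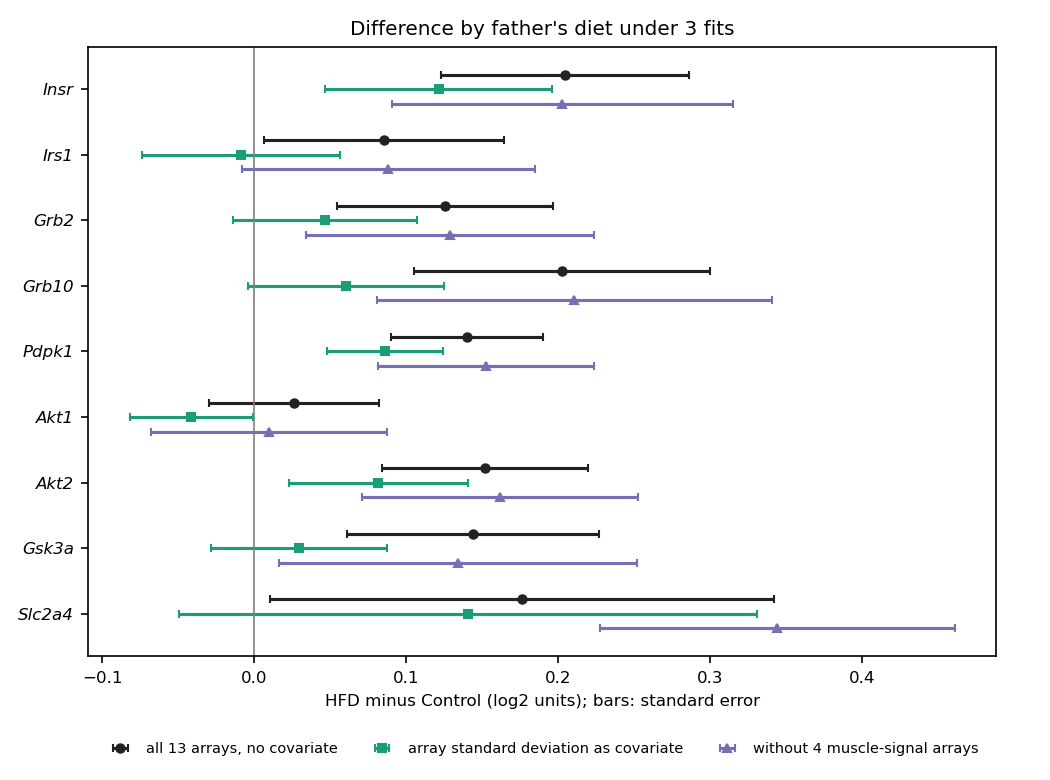
High-fat (HFD) minus Control difference in log2 units (horizontal axis) with its standard error for 9 genes, from limma over all 13 arrays, with array standard deviation as a covariate, and with the 4 muscle-rich arrays left out. With the covariate Insr is 0.12 in place of 0.20 and Grb10 0.06 in place of 0.20, and without the 4 arrays Slc2a4 is 0.34 in place of 0.18.

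The animal numbers fall in 2 ranges whose meaning is not given, 619 to 631 (4 high-fat and 3 control) and 656 to 664 (2 high-fat and 4 control). In the first range the differences were 0.21 for Insr, 0.23 for Grb10, 0.16 for Pdpk1, 0.20 for Akt2 and 0.44 for Slc2a4. In the second they were 0.17, 0.13, 0.09, 0.02 and -0.12 for the same genes in that order. For Slc2a4 the means in the first range were 9.21 in high-fat and 8.77 in control daughters. There high-fat daughters 629 and 619 carried the muscle signal, with Slc2a4 at 9.56 and 8.76. In the second range the means were 8.97 in high-fat and 9.09 in control daughters. There controls 662 and 664 carried the muscle signal, with Slc2a4 at 9.54 and 9.29. The part of muscle signal in the Slc2a4 difference of either range was not tested. The difference between the ranges was tested as an interaction, and none of the 9 genes had an unadjusted p under 0.05 (background 3.47% of all genes); Slc2a4 came nearest, at -0.56 ± 0.33 (limma, adjusted p = 0.999).

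Of 73 other insulin pathway genes listed, 59 were measured, and limma called 0 of them. Means were higher in high-fat daughters for 54 and lower for 5, with a median difference of 0.09, against 0.03 over all genes. Among genes above the median level the list had a median of 0.087 and all such genes 0.085. The list median was 0.035 with renewed quantile normalization, 0.020 with array spread as a covariate and 0.0015 with the adipocyte marker mean as a covariate. An unadjusted p under 0.05 was reached by 7, each of them higher (11.9%, against 5.42% of all genes and 8.93% of those above the median level). Leaving out high-fat daughter 619 brought that count to 1, and leaving out 624 to 2. It was 3 when either control 631 or control 658 was left out, and 2 with the number range as a covariate. Over all genes the count fell too, from 1155 to 591 without high-fat daughter 619 and 508 without 624. It was 713 without control 631, 682 without control 658 and 611 with the number range as a covariate. Each of the 7 had an adjusted p of 0.529. They were Gys1, the muscle-type glycogen synthase released when Gsk3 is turned off (0.32 ± 0.14), Pde3b, the phosphodiesterase through which insulin restrains lipolysis (0.20 ± 0.09), and Rheb, the GTPase that activates mTORC1 (0.19 ± 0.08). The others were Trib3, a pseudokinase that binds Akt (0.16 ± 0.07), Stx4, the surface syntaxin with which Glut4 vesicles fuse (0.15 ± 0.06), Mapkap1, a subunit of mTORC2 (0.15 ± 0.06), and Map2k2, a kinase of the Ras pathway (0.11 ± 0.05). With array spread as a covariate 0 of the 59 had such a p, and 407 of all genes had one.

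By role, 10 of 11 receptor and adaptor genes were higher (median 0.08), 9 of 11 inhibitors (median 0.05), 19 of 20 kinases and their targets (median 0.08), 2 of 3 Ras pathway genes (median 0.11) and 14 of 14 genes of Glut4 traffic and supply (median 0.10). Beside these, 58.0% of all genes and 84.4% of those above the median level were higher, with medians of 0.03 and 0.09. Irs3, a docking protein of rodent adipocytes, differed by 0.02 ± 0.06 with levels of 8.51 ± 0.09 (SD, n = 6) in high-fat and 8.49 ± 0.12 (SD, n = 7) in control daughters. Igf1r, the receptor related to Insr, differed by -0.03 ± 0.11. Ptpn1, a phosphatase that turns the receptor off, differed by -0.01 ± 0.07, and Grb14, an adaptor related to Grb10, by 0.15 ± 0.21. Pik3r1, the regulatory subunit of PI3-kinase, differed by 0.07 ± 0.07, Gsk3b by 0.04 ± 0.05 and Foxo1, a transcription factor that Akt keeps out of the nucleus, by 0.07 ± 0.08. None of these 7 had an unadjusted p under 0.05. The 95% interval for Irs3 was -0.12 to 0.16 log2 units and that for Ptpn1 was -0.16 to 0.13.

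With group means removed, the 5 genes most like Slc2a4 over 13 arrays were Mlycd (r = 0.905), a malonyl-CoA decarboxylase, Lrrc39 (0.888) and Sgca (0.887), both muscle genes, Pxmp4 (0.885), a peroxisomal membrane protein, and Aldoa (0.877), an aldolase of glycolysis. Those most like Insr were Gkap1 (0.906), Polr3gl (0.903), Ctdsp1 (0.898), Phc2 (0.895) and Ikzf5 (0.895). Irs1 was followed most closely by Cntln (0.971), Alms1 (0.956), Rtcb (0.948), Dnttip1 (0.948) and Ercc6 (0.947), and Akt2 by Enpp5 (0.96), Pik3cb (0.944), Cog7 (0.939), Slc38a7 (0.935) and Elmod2 (0.924). Of these, Pik3cb, a catalytic subunit of PI3-kinase, belongs to the pathway. These likenesses are descriptions over arrays that share the differences in spread and in muscle signal given above. The 4 arrays with most muscle signal were among the 13, and the genes most like Slc2a4 were not sought without them.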

How the data were processed

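RNA of fat from 13 daughters was labelled with biotin and hybridised to Affymetrix arrays, per the labels' protocols. The deposited table holds log2 levels of 29214 probe sets, made by the authors with RMA and Partek per the submitters' processing notes. RMA corrects background, normalizes between arrays and summarises probes. Their versions are not stated here, nor is a filter. That the scale is log2 follows from the range of values, 3.24 to 14.54, and detection was not assessed. Arrays still differed in spread after RMA.

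Of the probe sets, 15310 had 1 symbol in the platform annotation. For 527 symbols with several, the brightest was kept, and 15279 identifiers were found in RefSeq's GRCr8 gene table, with 0 symbols changed. Groups came from titles. The main test was limma 3.58.1 in R 4.3.3 without covariates, high-fat minus control. Single values used exact permutation over 1716 arrangements. The members and lists were chosen with earlier results of these data known. Named genes were the members, pathway genes with an unadjusted p under 0.05 and 12 fixed ones, of which those measured are given, and the 5 most similar genes of 4 members. Of 45 pairs planned, 36 remained without Irs2. On simulated data with 200 changed genes among 14506 in each of 5 sets, the fit recovered 26.3% of changes of 0.25 log2 units, 73.4% of 0.5 and 96.7% of 1. The simulated noise was drawn for each gene on its own, without the shared array spread, so these rates need not hold for the real arrays. Alternatives covered normalization, probe rule, variance, covariates and samples.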

Additional observations from a re-analysis of the deposited data

Results flagged for a closer look

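Each of 18 groups, 9 genes in each diet group, was tested for an animal far from the others by Dixon's gap rule, which chance passes in about 1 of 20 groups. Akt1 in high-fat daughter 660, at 10.44, was far below the rest of its group, and the gap to the next animal was 0.726 of the group's range. Akt2 in control 658, at 11.90, was far below the other controls, with a gap of 0.77 of the range. Both animals are among the 3 with the smallest array spread, at 1.86 and 1.78.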

How the results depend on the processing

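No gene and no member passed the adjusted threshold under any of 33 other settings, an adjusted p of 0.1 among them, and leaving out each animal in turn gave 0 calls throughout (from 0 to 0 for all genes, the members and the pathway genes). Members with an unadjusted p under 0.05 numbered 3, and 1 to 5 when 1 animal was left out. They numbered 1 with array standard deviation as a covariate, 1 with the adipocyte marker mean as a covariate, 1 without the 4 muscle-rich arrays, 1 without those arrays and with array standard deviation as a covariate, 0 in animals 656 to 664 only, and 0 with array standard deviation and muscle mean as covariates. With the array standard deviation alone that gene was Pdpk1, and in the other 3 settings with 1 it was Slc2a4, which is not among the 3. Pairs of members that passed numbered 15, 8 without the 4 muscle arrays and 1 with array standard deviation removed. The difference of Akt1 turned to -0.018 with renewed quantile normalization, -0.0414 with array standard deviation, -0.0415 with muscle mean added to it, -0.0069 with the adipocyte mean, -0.0010 in animals 656 to 664, and -0.057 without the muscle arrays and with array standard deviation. Leaving out 1 animal gave -0.0053 (without control 658) to 0.052 (without high-fat daughter 660). That of Irs1 turned to -0.0087 with array standard deviation, -0.0097 with muscle mean added, -0.011 with the adipocyte mean and -0.028 in animals 656 to 664. Grb2 turned to -0.0056 with the adipocyte mean and Slc2a4 to -0.12 in animals 656 to 664. The cause was not tested. All genes at an unadjusted p under 0.05 numbered 1155, 407 with array standard deviation as a covariate, 2508 without high-fat daughter 660 and 508 without high-fat daughter 624. Of the members' differences, 168 kept their direction under settings other than leaving out 1 animal, and 12 turned. Those that kept it include settings where the difference could not turn, since the members' levels and the groups stayed the same. These settings were an adjusted p of 0.1, the unmoderated model, another variance model, only genes above the median level, and all probe sets. The 168 is therefore not a measure of how firm the directions are. The settings that combine array standard deviation with muscle signal, and its removal from pairs, were chosen after seeing the data. No paired analysis was possible because the groups share no animal number.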
